A study of Rattus norvegicus with 15 samples.

Results

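The 9 genes described here are markers used to recognise dendritic cells and their subsets: Itgax, Clec10a, Flt3, Xcr1, Clec9a, Zbtb46, Batf3, Irf8 and Cd83. They were taken by gene symbol from a table of 23342 symbols, in which each has 1 row, and all 9 had enough counts to be among the 16046 genes tested. The data are RNA-seq counts from rat synovial tissue, the lining of the joint, in 15 libraries. The 5 Ab rats had adjuvant-induced arthritis and received an anti-cANGPTL4 antibody into the peritoneum 2 times per week. The 5 AIA rats had the arthritis alone, which was started in AIA and Ab rats with 100 uL of complete Freund's adjuvant in the skin of the tail. The 5 CON rats were left untreated. All rats are labelled WT. No vehicle, isotype antibody, strain, sex, age or sampling day is named in the labels. A library counts as 1 rat here. The title of Ab replicate 21_8 carries a pair of numbers, and whether it is a pool is not stated.

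Dendritic cells take up antigen, migrate to lymph nodes and present peptides on MHC class II to T cells. Conventional dendritic cells depend on FLT3 ligand, which acts on the receptor encoded by Flt3. They divide into the cDC1 subset, specialised in cross-presentation to CD8 T cells, and the cDC2 subset, which mainly activates CD4 T cells. These roles, and those given for single genes below, are known mostly from mice and humans.

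Total counts were 31172215 to 34084345 per library. Prg4, the lubricin gene of synovial lining cells, averaged 12.5 on the log2 scale of CPM, the read count per library size. The skeletal muscle genes of a marker list summed to 16472 CPM in AIA replicate 19 and 8176 CPM in CON replicate 2, against 18.6 to 60.7 CPM in the other libraries. Below, CPM are scaled by TMM factors, a gene is called at an adjusted p under 0.05 over all tested genes, and an alternative is one of 24 other settings or sets of libraries.

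Levels of different genes were compared per length, on the deposited FPKM. Clec10a had the highest median level, 14.8 FPKM in Ab, 32.6 FPKM in AIA and 15.96 FPKM in CON libraries. Irf8, Zbtb46, Batf3 and Cd83 followed with group medians of 2.10 to 6.44 FPKM, and their order differed between the groups. Itgax, Clec9a and Flt3 had group medians of 0.165 to 1.22 FPKM. Xcr1 was the lowest, at 0.0230 FPKM in Ab, 0.0270 FPKM in AIA and 0.0222 FPKM in CON libraries. The gene lengths implied by the counts and FPKM run from 703 bases for Batf3 to 15922 bases for Itgax, with 12503 bases for Xcr1. The order depends on them. On CPM, which are not divided by length, the AIA medians were 19.8 for Itgax, 11.7 for Cd83 and 2.59 for Batf3. Whether the lengths match the expressed transcripts was not tested.

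**Figure D1:**
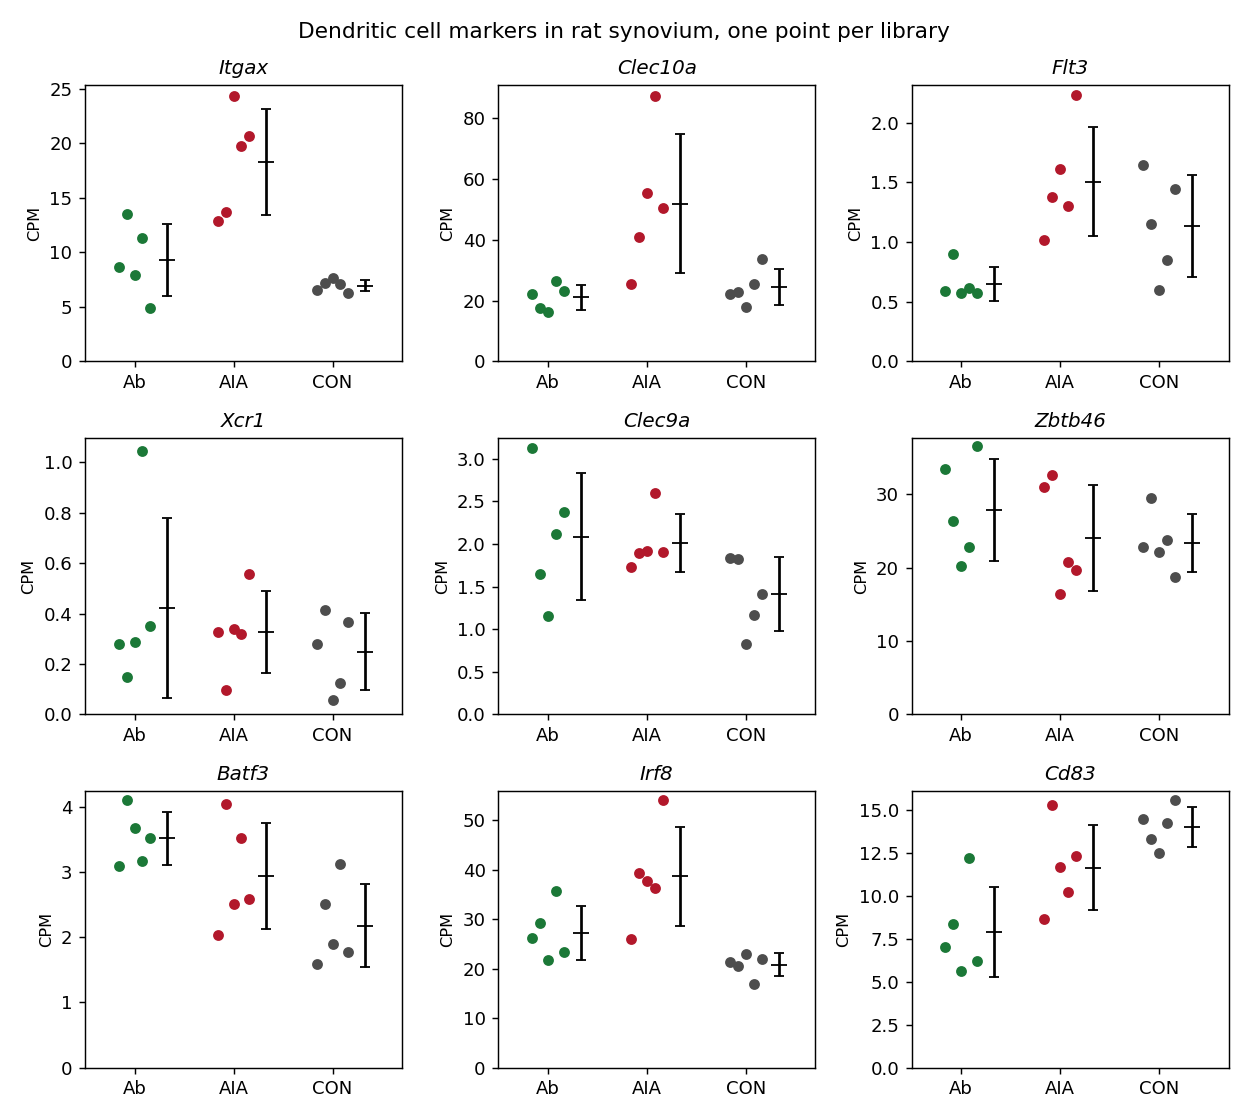
CPM of the 9 markers (y axis, from 0) in each library of the Ab, AIA and CON groups, with the mean and SD of the 5 libraries beside the points. All AIA points of Itgax and Irf8 lie above the CON points, all Ab points of Flt3 lie below the AIA points, and all Ab points of Cd83 lie below the CON points.

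In arthritic against untreated synovium, 3 of the 9 markers rose and 0 fell. They are Itgax, the integrin alpha X chain (CD11c) of dendritic cells and many macrophages, Irf8, a transcription factor of the cDC1, monocyte and B cell lineages, and Clec10a, a galactose-type lectin of cDC2 cells and macrophages. Of all tested genes, 5.09% were called higher and 3.45% lower by the edgeR quasi-likelihood test. The median log2 fold change of the 9 markers was 0.43, against -0.0034 over all tested genes. An unadjusted p under 0.05 was found for 3 of the 9 and for 3393 of the 16046 tested genes. Fewer cells of a type and less RNA per cell cannot be told apart in bulk tissue.

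Itgax stood at 12.9, 13.7, 24.4, 19.8 and 20.7 CPM in AIA replicates 5, 13, 18, 19 and 23, against 6.55, 7.20, 7.61, 7.09 and 6.27 CPM in CON replicates 2, 7, 11, 14 and 17. AIA replicates 18, 19 and 23 were the highest, and the groups did not overlap, as for 3.25% of tested genes in this direction. Itgax was 2.63-fold higher in AIA, a log2 fold change of 1.40 ± 0.23 (SE, n = 5 each), with an edgeR adjusted p of 0.00224. It was called in all 24 alternatives.

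Irf8 stood at 26.0, 39.3, 37.8, 36.3 and 54.0 CPM in the AIA replicates, against 21.4, 20.6, 22.9, 16.9 and 22.0 CPM in the CON replicates, in the same order. AIA replicate 23 was the highest, AIA replicate 5 came closest to CON, and the groups did not overlap. The gene was 1.86-fold higher in AIA, a log2 fold change of 0.90 ± 0.17 (SE), with an edgeR adjusted p of 0.0042. It was called in all 24 alternatives.

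Clec10a stood at 25.5, 40.9, 55.3, 87.4 and 50.3 CPM in the AIA replicates, against 22.0, 22.9, 17.9, 25.5 and 33.7 CPM in the CON replicates. AIA replicate 5 lay within the CON range, and AIA replicate 19, which holds muscle transcripts, was the highest. The log2 fold change was 1.09 ± 0.26 (SE), or 2.12-fold, with an edgeR adjusted p of 0.0164. Without AIA replicate 19 and CON replicate 2 it was 0.78 and was not called (adjusted p = 0.0882), and the other 23 alternatives called it.

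Promoter windows are shown for Itgax and Irf8, the markers that rose without overlap, and for Xcr1, a cDC1 marker that was not called and whose window holds both of the motifs in capitals. They are RefSeq windows of build GRCr8, from 250 bases before to 50 after the gene's start, on the strand of the gene. Capitals mark TGANTCA, a form bound by AP-1 and BATF factors, and GAGGAA, a form bound by PU.1, on either strand.
Itgax, chr1:192149799-192150098, plus strand: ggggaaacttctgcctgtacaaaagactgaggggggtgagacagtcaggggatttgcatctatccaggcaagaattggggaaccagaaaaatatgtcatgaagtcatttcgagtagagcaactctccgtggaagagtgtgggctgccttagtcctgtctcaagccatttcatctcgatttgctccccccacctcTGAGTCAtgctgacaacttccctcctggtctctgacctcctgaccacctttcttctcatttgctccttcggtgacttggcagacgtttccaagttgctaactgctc
Irf8, chr19:65699034-65699333, plus strand: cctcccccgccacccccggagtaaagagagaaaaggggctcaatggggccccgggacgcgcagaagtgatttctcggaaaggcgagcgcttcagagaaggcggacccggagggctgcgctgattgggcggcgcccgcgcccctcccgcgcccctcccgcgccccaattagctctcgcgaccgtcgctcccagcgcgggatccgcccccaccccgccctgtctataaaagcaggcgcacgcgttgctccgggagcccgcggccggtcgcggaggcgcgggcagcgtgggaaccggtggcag
Xcr1, chr8:132364607-132364906, minus strand: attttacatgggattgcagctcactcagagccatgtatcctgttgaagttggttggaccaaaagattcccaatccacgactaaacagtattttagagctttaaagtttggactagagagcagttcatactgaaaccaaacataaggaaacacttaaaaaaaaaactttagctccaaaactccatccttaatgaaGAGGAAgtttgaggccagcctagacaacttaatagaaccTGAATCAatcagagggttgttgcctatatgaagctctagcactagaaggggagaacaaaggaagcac
TGANTCA lies at -56 from the start in the Itgax window and at -17 in the Xcr1 window, which also holds GAGGAA at -56. The start used lies 9960 bases inside the annotated gene span for Itgax, 28940 for Xcr1, 35972 for Zbtb46 and 546 for Cd83. A window was found for 8 of the 9 markers, all but Clec10a. TGANTCA was in 2 of the 8 windows and in 7.33% of all 33469 windows. GAGGAA was in 3 of 8, those of Xcr1, Zbtb46 and Batf3, and in 27.6% of all. GAAANNGAA, a form bound by IRF factors, was in 0 of 8 and 9.71% of all, and GGANTTTCC, a form bound by NF-kappaB, in 0 of 8 and 1.28% of all. The ETS core GGAA, which GAGGAA contains, was in 8 of 8 and 95.8% of all and is not capitalised. These matches describe letters only.

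Itgax lies beside the related integrin genes Itgam and Itgad in RefSeq, and the counting could split reads between them. Chosen after their values were seen, Itgad had 21 to 47 counts in AIA and 3 to 29 in CON libraries and rose by a log2 fold change of 1.86 ± 0.49 (SE, edgeR adjusted p = 0.0278), while Itgam was at 0.31 ± 0.22 and was not called (adjusted p = 0.471). Itgax itself had 427 to 788 counts in AIA and 211 to 256 in CON libraries.

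In antibody-treated against untreated arthritic synovium, 3 of the 9 markers fell and 0 rose. They are Clec10a, Flt3 and Itgax. Of all tested genes, 3.99% were called lower and 1.83% higher. The median log2 fold change of the 9 was -0.50, against -2.97e-05 over all tested genes. An unadjusted p under 0.05 was found for 5 of the 9 and for 3762 of the 16046 tested genes. Leaving out 1 library moved the 641 genes called lower to between 139 and 1278 and the 294 called higher to between 48 and 754. The comparison shares its AIA libraries with the one above, so the values are not independent of it. Across alternatives, 0 of the 9 were called when only the 10 Ab and AIA libraries were fitted.

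Clec10a stood at 22.0, 17.4, 16.3, 26.3 and 23.3 CPM in Ab replicates 3, 9, 10, 12 and 21_8, against the 25.5 to 87.4 CPM of AIA. Ab replicate 12 overlapped AIA replicate 5, and the other Ab libraries lay below all AIA libraries. The log2 fold change was -1.30 ± 0.26 (SE), with an edgeR adjusted p of 0.0161. It was lost in 1 of 24 alternatives, the fit on 10 libraries, at adjusted p = 0.0515.

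Itgax stood at 8.70, 13.6, 7.97, 11.3 and 4.88 CPM in the Ab replicates, against 12.9 to 24.4 CPM in AIA. Only Ab replicate 9 reached the AIA range. The log2 fold change was -0.98 ± 0.23 (SE), with an edgeR adjusted p of 0.0267. It was lost in 6 of 24 alternatives, at adjusted p of 0.0794 in the fit on 10 libraries, 0.0735 without AIA replicate 19 and CON replicate 2, 0.075 without Ab replicate 10, and 0.0774, 0.0609 and 0.0658 without AIA replicates 18, 19 and 23.

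Flt3 stood at 0.588, 0.900, 0.576, 0.615 and 0.571 CPM in the Ab replicates, against 1.02, 1.38, 1.61, 1.30 and 2.23 CPM in the AIA replicates. The groups did not overlap, as for 2.2% of tested genes in this direction, and the counts behind them were low, 18 to 30 in Ab and 34 to 68 in AIA libraries. The log2 fold change was -1.21 ± 0.30 (SE), with an edgeR adjusted p of 0.0316. It was lost in 10 of 24 alternatives, at adjusted p up to 0.0825, which include leaving out Ab replicate 3, 10, 12 or 21_8 or AIA replicate 18, 19 or 23. In CON, Flt3 stood at 1.65, 1.15, 0.594, 0.851 and 1.44 CPM, and AIA against CON was not called (0.40 ± 0.29, adjusted p = 0.477). Flt3lg, its ligand, was at -0.19 ± 0.12 in AIA against CON and 0.08 ± 0.12 in Ab against AIA and was not called in either (adjusted p = 0.393 and 0.745).

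Ptprc, the pan-leukocyte gene CD45, moved with these calls. It stood at 17.03 to 35.9 CPM in Ab, 39.9 to 51.9 CPM in AIA and 30.4 to 39.2 CPM in CON libraries. It fell in Ab against AIA by a log2 fold change of -0.75 ± 0.16 (SE, edgeR adjusted p = 0.0208) and was not called in AIA against CON (0.39 ± 0.16, adjusted p = 0.171).

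Irf8 and Cd83 were below AIA in Ab but did not pass. Irf8 stood at 26.2, 29.2, 21.8, 35.7 and 23.4 CPM in Ab (-0.50 ± 0.17 on the log2 scale against AIA, edgeR adjusted p = 0.0825). DESeq2 called it, as did the fits without Ab replicate 12 and without AIA replicate 5 (adjusted p = 0.0418, 0.0452 and 0.0164). The same 3 alternatives called Cd83, described next, at adjusted p of 0.0427, 0.0209 and 0.0389.

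Cd83, a surface protein of mature dendritic cells and activated B cells, fell in antibody-treated arthritic rats against untreated controls, the 1 marker of the 9 called in that comparison, which shares its libraries with the others. At an unadjusted p under 0.05 there were 4 of the 9 markers and 3798 of the 16046 tested genes. Of all tested genes, 4.66% were called lower and 3.38% higher in Ab against CON, and the groups of 5.27% lay apart in the lower direction. Cd83 stood at 7.03, 8.34, 5.63, 12.2 and 6.22 CPM in Ab, against 14.4, 13.3, 12.5, 14.2 and 15.6 CPM in CON. Ab replicate 12 was the highest of its group and still below every CON library. The log2 fold change was -0.83 ± 0.19 (SE), with an edgeR adjusted p of 0.0158, and all 24 alternatives called it. AIA libraries stood at 8.66, 15.3, 11.7, 10.2 and 12.3 CPM and overlapped both other groups. Neither Ab against AIA (-0.56 ± 0.19, adjusted p = 0.0903) nor AIA against CON (-0.27 ± 0.19, adjusted p = 0.477) was called by edgeR on all libraries.

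On TMM-normalised counts, the markers restricted to cDC1 cells were not called in any comparison. Clec9a, a receptor for dead cells, stood at 3.13, 1.65, 1.15, 2.12 and 2.38 CPM in Ab, at 1.73, 1.89, 1.92, 2.602 and 1.90 CPM in AIA and at 1.83, 1.83, 0.832, 1.17 and 1.41 CPM in CON. The groups overlapped. The 95% interval of the log2 fold change was -0.07 to 1.08 for AIA against CON and -0.52 to 0.63 for Ab against AIA, with edgeR adjusted p of 0.316 and 0.938.

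Xcr1, the receptor for the chemokine XCL1, had 9, 5, 9, 34 and 11 counts in Ab, 11, 3, 11, 10 and 17 counts in AIA and 9, 14, 2, 4 and 13 counts in CON libraries. Ab replicate 12 was the highest. At this depth the intervals were wide, -0.86 to 1.62 for AIA against CON and -0.83 to 1.56 for Ab against AIA on the log2 scale. Its ligand gene Xcl1 had too few counts to test, with 0 to 6 in Ab, 0 to 15 in AIA and 0 to 4 in CON libraries.

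Batf3, a transcription factor that cDC1 cells need in mice, stood at 3.10, 4.11, 3.68, 3.17 and 3.52 CPM in Ab, at 2.03, 4.04, 2.51, 3.52 and 2.59 CPM in AIA and at 1.58, 2.51, 1.90, 3.12 and 1.78 CPM in CON. AIA replicates 13 and 19 lay within the Ab range, and CON replicate 14 was the 1 CON library that reached it. Ab against CON was at 0.69 ± 0.22 (SE) and was not called by edgeR (adjusted p = 0.0688), while 5 of 24 alternatives called it.

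Zbtb46, a transcription factor of conventional dendritic cells that endothelial cells also make, stood at 33.4, 26.3, 20.2, 22.8 and 36.6 CPM in Ab, at 30.97, 32.6, 16.4, 20.7 and 19.6 CPM in AIA and at 22.8, 29.4, 22.0, 23.8 and 18.7 CPM in CON. The groups overlapped, and each comparison had an edgeR adjusted p of 0.484 or above. The 95% interval of the log2 fold change was -0.39 to 0.47 for AIA against CON and -0.22 to 0.64 for Ab against AIA. Its sign in AIA against CON turned in 5 of 24 alternatives. Endothelial marker genes summed to 3716 to 5306 CPM in Ab, 3499 to 4233 CPM in AIA and 2608 to 3313 CPM in CON libraries, and the part of endothelial cells in the Zbtb46 values was not tested.

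**Figure D2:**
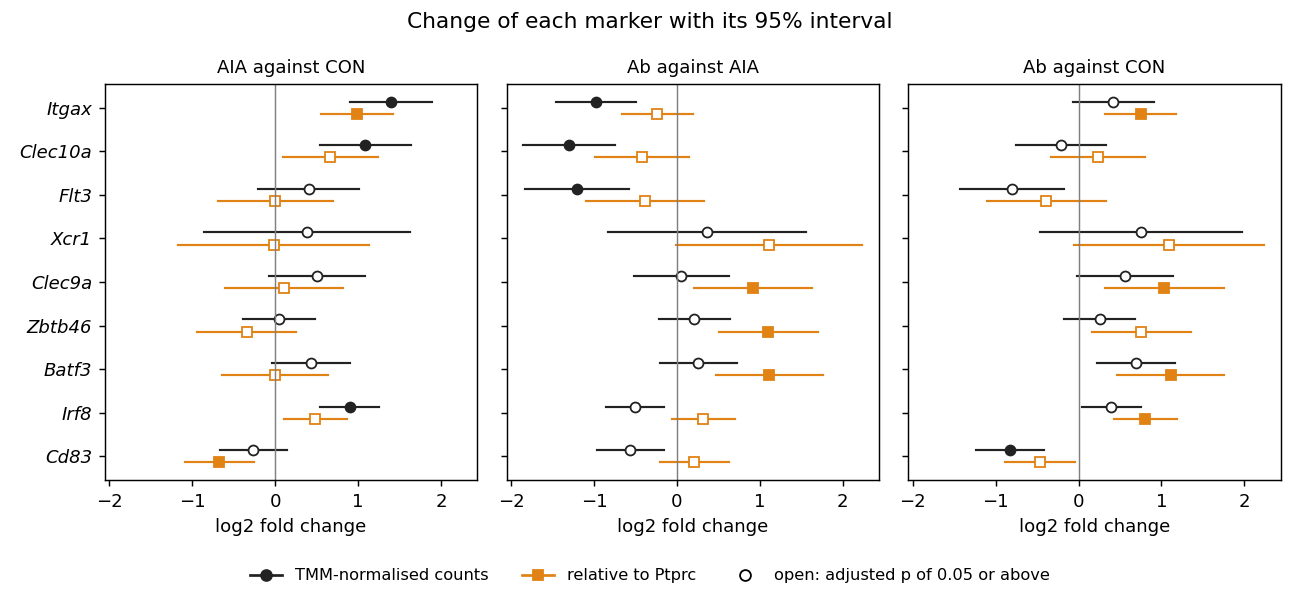
Log2 fold change (x axis) with its 95% interval for each marker in the 3 comparisons, from TMM-normalised counts (black circles) and relative to Ptprc (orange squares), filled where the adjusted p is under 0.05. On TMM-normalised counts 3 markers are filled for AIA against CON, 3 for Ab against AIA and 1 for Ab against CON.

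Set against Ptprc, the question was whether a marker changed by more or less than the leukocyte gene. In AIA against CON, Itgax rose by 0.98 ± 0.21 (SE) on the log2 scale relative to Ptprc (edgeR adjusted p = 0.00433) and was called whichever library was left out. Cd83 fell by 0.67 on that scale (adjusted p = 0.0391) and lost the call in 9 of 15 such fits. The background was 1.98% called higher and 6.78% lower, and the median of all tested genes was -0.40. Leaving out 1 library moved the 1088 genes called lower to between 511 without AIA replicate 23 and 3548 without Ab replicate 21_8. Clec10a and Irf8 were not called relative to Ptprc (adjusted p = 0.106 and 0.0877).

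In Ab against AIA, none of the 3 markers that fell was called relative to Ptprc, with edgeR adjusted p of 0.156 for Clec10a, 0.294 for Itgax and 0.3 for Flt3. Clec9a, Zbtb46 and Batf3 were called higher, at 0.92, 1.10 and 1.12 on the log2 scale, but so were 77% of all tested genes, whose median was 0.85. In Ab against CON, Irf8 (0.80, adjusted p = 0.00991) was called whichever library was left out. Itgax (0.75), Batf3 (1.11) and Clec9a (1.03) were called too, each losing the call in 4 or more of 15 fits, against 15% of all genes called higher and a median of 0.46. That background depended on single libraries, with 2410 genes called higher over all libraries, 494 without Ab replicate 10 and 8035 without Ab replicate 12. Cd83, the 1 marker called in Ab against CON on TMM-normalised counts, was at -0.46 relative to Ptprc and was not called (edgeR adjusted p = 0.0874). It was called in 1 of 15 fits leaving out 1 library, and 0.848% of all genes were called lower.

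Other genes of dendritic cells were read from lists. Of 12 tested cDC2 and monocyte-derived dendritic cell genes, 4 rose and 0 fell in AIA against CON, with a median log2 fold change of 0.37. They include Ccr2, the receptor that brings monocytes out of marrow (1.98), and the lectin genes Clec4a3 (1.17), Clec4a1 (1.06) and Clec12a (0.74). In Ab against AIA, 5 of the 12 fell and 0 rose, with a median of -0.68, among them Ccr2 (-1.94), Clec4a3 (-1.39) and Clec4a1 (-1.21). Monocytes also express most of these genes.

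Of 11 tested further cDC1 genes, 1 rose in AIA against CON, the chemokine gene Cxcl9 (1.03, edgeR adjusted p = 0.0389), and 0 were called in Ab against AIA or Ab against CON. Of 11 plasmacytoid dendritic cell genes, 3 rose and 1 fell in AIA against CON. Tlr9, a sensor of DNA, rose by 1.86 and Runx2 by 0.98, Smim5 fell by 0.97, and Siglech was called with 0 counts in 2 CON libraries. In Ab against AIA, Tlr9 (-2.03) and Tlr7 (-1.01) fell and Smim5 rose (0.99).

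Of 19 maturation and migration genes, 9 rose and 1 fell in AIA against CON. Ccl19, a chemokine that draws CCR7-bearing cells, rose by 2.40, the costimulatory gene Cd80 by 1.60 and Ccr7, the receptor for CCL19, by 1.46, while Ccl22 fell by 2.14. Levels were low for Cd80, Ccr7 and Ccl22, which averaged -0.26, -1.03 and -1.26 on the log2 CPM scale. Which cells these transcripts come from was not tested. In Ab against AIA, Ccr7 (-1.79), Cd80 (-1.46) and Marcksl1 (-0.58) fell and Traf1 rose (0.45). Of 18 transcription factors of dendritic cell development, Relb (0.56) and Runx3 (1.99) rose and Zeb2 fell (-0.43) in AIA against CON, and Runx3 fell in Ab against AIA (-1.67). T cells also express Runx3.

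Of 14 MHC class II presentation genes, 8 rose and 0 fell in AIA against CON, with a median of 0.88, and 6 fell and 0 rose in Ab against AIA, with a median of -0.77. RT1-Bb, a class II beta chain, rose by 1.36 and Ciita, the class II transactivator, by 1.37 in AIA. B cells, macrophages and dendritic cells share these genes, and reads of near-identical RT1 genes may be split.

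Markers of other cells moved in the same comparisons. Of 14 T and NK cell genes, 12 rose in AIA against CON (median 2.20) and 6 fell in Ab against AIA (median -1.66). Of 16 macrophage and monocyte genes, 1 rose (Adgre1, 0.96) and 1 fell (Timd4, -0.89) in AIA against CON, and 5 fell in Ab against AIA (median -0.59). Macrophage genes summed to 1068 to 2131 CPM in Ab, 1562 to 3009 CPM in AIA and 2039 to 3396 CPM in CON libraries. Of 9 B cell genes, 0 were called in either comparison, and their summed CPM had medians of 18.9 in Ab, 24.7 in AIA and 20.1 in CON libraries. The part of these cells in the marker changes was not tested.

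Relative to Ptprc, the counts of these lists were different. On this scale, 1.98% of all tested genes were called higher and 6.78% lower in AIA against CON. In AIA against CON, 5 MHC class II genes were higher and 1 lower, 1 maturation and migration gene was higher and 2 lower, and 3 cDC2 and monocyte-derived genes were higher and 0 lower. The further cDC1 genes had 0 called, the plasmacytoid genes 2 higher and 2 lower, and the transcription factors 1 higher and 1 lower. The T and NK cell list had 11 called higher and 1 lower, the macrophage list 0 and 4, and the B cell list 0 and 1. In Ab against AIA, 77% of all genes were called higher on this scale and 1.46% lower. There, 0 MHC class II genes were higher and 1 lower, and 9 maturation and migration genes were higher and 1 lower. The cDC2 and monocyte-derived genes had 2 higher and 2 lower. The further cDC1 genes had 5 higher and 0 lower, the plasmacytoid genes 6 and 1, and the transcription factors 9 and 1. The T and NK cell genes had 0 higher and 5 lower, the macrophage genes 4 and 0, and the B cell genes 1 and 0.

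**Figure D3:**
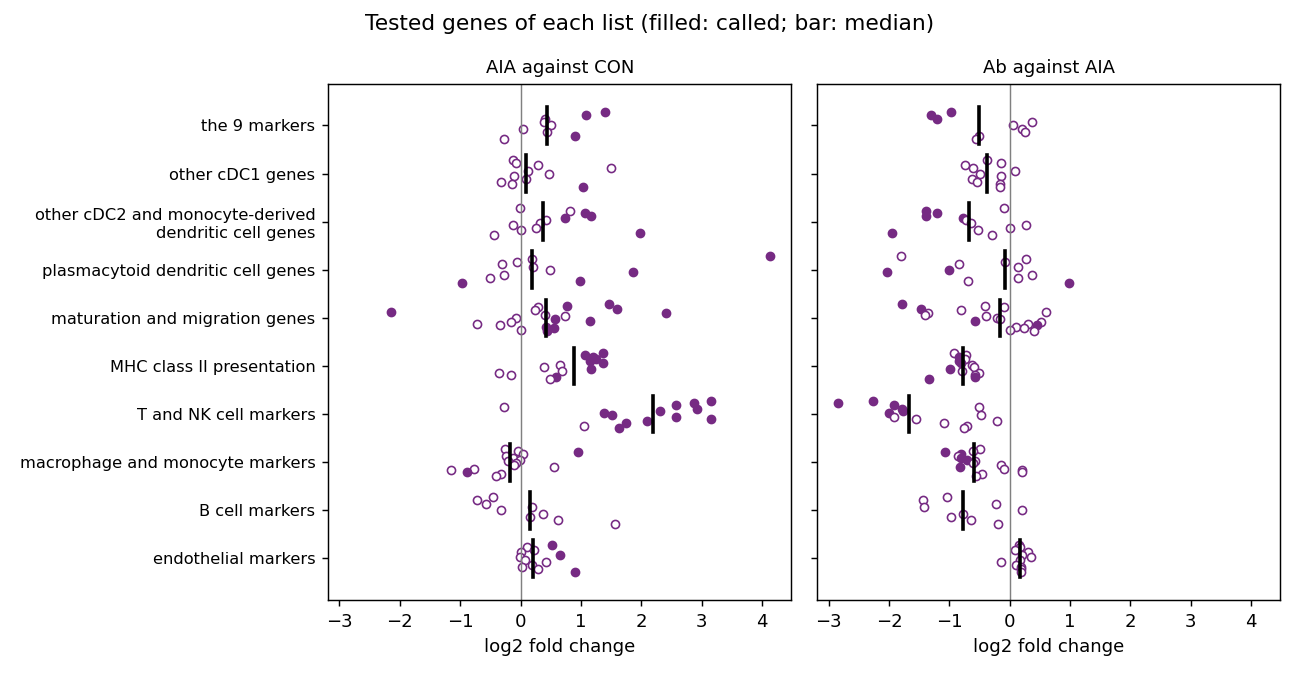
Log2 fold change (x axis) of each tested gene of 10 gene lists in AIA against CON (left) and Ab against AIA (right), with filled points for called genes and a bar at the list's median. Among the lists drawn, T and NK cell genes have the median farthest from 0 in both panels, 2.20 and -1.66. Lists not drawn include the neutrophil genes (median 2.98 in AIA against CON) and the skeletal muscle genes (median -8.13 in Ab against AIA).

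Within groups, libraries were compared by their deviation from the group mean of log2 CPM over the 15 libraries, which share depth and tissue composition. Of 36 pairs of markers, 3 had r above 0.5 and 1 below -0.5. Irf8 and Cd83 deviated together (r = 0.71, Spearman's rho = 0.76, and r = 0.76 without the 2 libraries farthest from the median). Itgax and Zbtb46 deviated in opposite directions (r = -0.62, rho = -0.54, and -0.63 without 2).

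Irf8 went with the mean of the MHC class II genes (r = 0.90, rho = 0.89, and 0.88 without 2), and the gene most like it was RT1-DOb (r = 0.91, rho = 0.92, and 0.87 without 2). Irf8 also went with Ptprc (r = 0.72, rho = 0.89, and 0.81 without 2). The same held for the macrophage genes (r = 0.64, rho = 0.73, and 0.76 without 2). Cd83 went with Ptprc too (r = 0.70, rho = 0.74, and 0.54 without 2). So did Itgax (r = 0.77, rho = 0.64, and 0.48 without 2). The part of leukocyte content in these deviations was not tested. Zbtb46 went with the endothelial genes (r = 0.60, rho = 0.51, and 0.56 without 2) and against the further cDC1 genes (r = -0.72, rho = -0.70, and -0.65 without 2). The genes most like Itgax were Cdca5 (r = 0.95, rho = 0.98, and 0.95 without 2), Tacc3 and Depdc1b, genes of dividing cells. Levels were low for Cdca5 and Depdc1b, which averaged -0.73 and -1.50 on the log2 CPM scale. Genes named as most like a marker were picked by r among all tested genes with named symbols, and such picking alone favours a high r. The gene most like Clec10a was Mfap5 (r = 0.91, rho = 0.89, and 0.78 without 2), a matrix gene, and next Asgr2, a lectin gene close to it on the chromosome whose reads could be split with it (r = 0.90, rho = 0.93, and 0.90 without 2). Clec10a did not go with the macrophage genes (r = -0.0012, rho = 0.01, and -0.23 without 2).

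**Figure D4:**
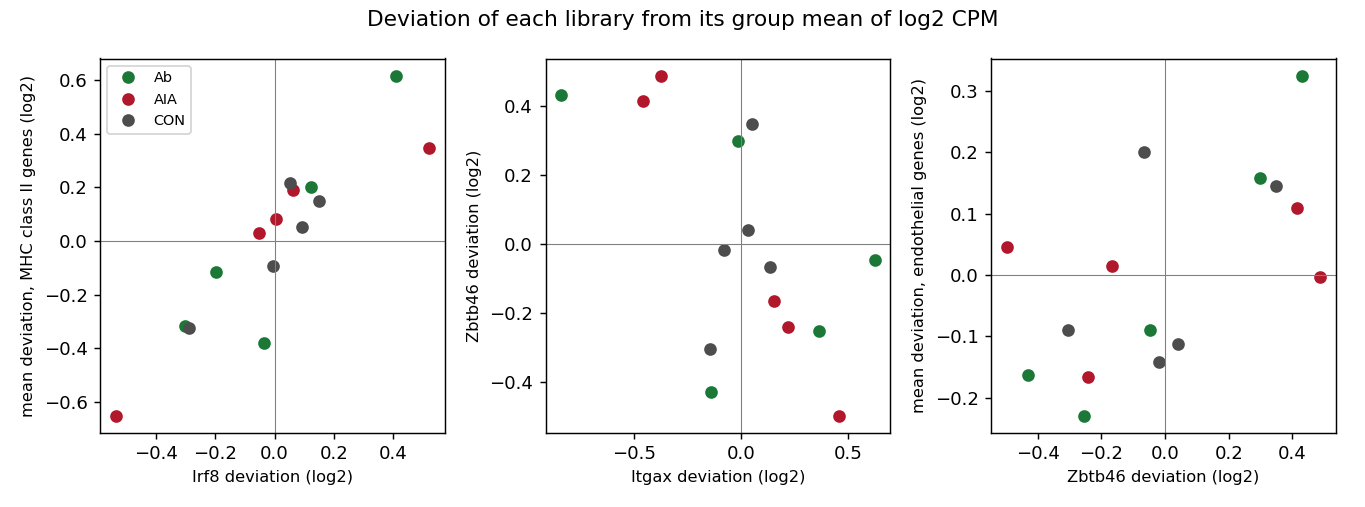
Deviation of each library from its group mean on the log2 CPM scale, for Irf8 and the mean of MHC class II genes (left), Itgax and Zbtb46 (middle), and Zbtb46 and the mean of endothelial genes (right), coloured by group. Points rise from left to right in the left panel (r = 0.90) and in the right panel (r = 0.60) and fall in the middle panel (r = -0.62).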

How the data were processed

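Per the labels' protocols, 15 SMARTER libraries were built from 1.3 ug of synovial total RNA each. The authors deposited raw counts per gene symbol and FPKM values. The deposited FPKM equal count over gene length and total count within 0.1% for 100% of 291027 values. The gene lengths were back-calculated from these same values, so the match shows only that the implied length is constant across libraries. The FPKM served for levels between genes and as an alternative. Which tools aligned and counted the reads is not stated in the labels or headers used here. GRCm38 and mm10, both mouse builds, are named in the submitters' processing notes, while 20949 symbols and 9 of 9 markers match rat RefSeq GRCr8, so the annotation is uncertain. Strandedness is not stated.

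Counts were tested in R 4.3.3 with edgeR 4.0.16 (filterByExpr, TMM factors, quasi-likelihood F test over 15 libraries with group as the term), which kept 16046 genes and removed 7296, with Benjamini-Hochberg adjustment. SE are implied by the F statistic and log2 CPM use a prior count of 2. "Relative to Ptprc" is the same test with library sizes proportional to the Ptprc count. DESeq2 1.42.0, limma 3.58.1 on log2(FPKM + 0.1) and log2(FPKM + 1), other factors and filters, the 10 libraries compared, leaving out each library, and leaving out AIA replicate 19 with CON replicate 2 were alternatives. The test was checked on simulated data. Groups and replicate numbers come from the titles. That libraries are separate rats is not stated for each, so p-values measure spread between libraries.

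The markers and the 16 other gene lists (214 genes, 184 tested) were chosen with earlier results of these data known. Named are all 9 markers, up to 4 called genes of largest change per list, or the 2 of highest level where none was called, and the genes most like a marker. Not every such gene is printed.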

Additional observations from a re-analysis of the deposited data

Results flagged for a closer look

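Of 27 groups of 5 libraries examined on the log2 CPM scale, 2 held a library far from the others by Dixon's test, where chance gives about 1 in 20. Flt3 in Ab replicate 9 stood at -0.0568, against -0.563 in the nearest other Ab library, a gap of 0.837 of the group's range. Clec9a in AIA replicate 19, the library with muscle transcripts, stood at 1.41, against 0.986 in the nearest other AIA library, a gap of 0.749 of the range.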

How the results depend on the processing

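Of 1049 values of single markers under alternatives, 959 kept direction and side of the threshold, 47 lost a call, 21 gained one and 22 changed sign, of which 0 were called. The count of markers called in AIA against CON was 3 in each fit leaving out 1 library. In Ab against AIA it was 3, with 5 by DESeq2, 0 in the fit on 10 libraries, 1 without AIA replicate 19 and CON replicate 2, and 1 to 5 leaving out 1 library (1 without Ab replicate 10 or AIA replicate 18, 19 or 23, and 5 without AIA replicate 5). In Ab against CON it was 1, with 2 by DESeq2, in the fit on 10 libraries and with limma on FPKM at either pseudocount, and 1 to 2 leaving out 1 library. Relative to Ptprc the counts leaving out 1 library were 1 to 3 around 2 for AIA against CON, 2 to 4 around 3 for Ab against AIA and 1 to 6 around 4 for Ab against CON. What moved these counts was not tested.

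Over all genes, Ab against AIA gave 294 higher and 641 lower, but 35 and 77 in the fit on 10 libraries, 46 and 174 without AIA replicate 19 and CON replicate 2, and 648 and 1238 by DESeq2. Without those 2 libraries AIA against CON gave 334 and 238 in place of 817 and 553, and Ab against CON 277 and 480 in place of 543 and 748. DESeq2 gave 1215 and 747, and 906 and 1106, for these. Leaving out 1 library gave 48 to 754 higher and 139 to 1278 lower in Ab against AIA, with a move of over 1.5 times for Ab replicates 9, 10, 12 and 21_8 and each AIA library. It gave 522 to 1147 and 369 to 796 in AIA against CON (AIA replicate 18 and CON replicate 14), and 288 to 676 and 407 to 876 in Ab against CON (Ab replicates 10 and 21_8, CON replicates 2, 11 and 14). Relative to Ptprc, the 1088 lower in AIA against CON became 511 to 3548 (Ab replicate 21_8, AIA replicates 5, 18, 19 and 23, CON replicates 7 and 14), and the 2410 higher in Ab against CON became 494 to 8035 (each Ab library, CON replicates 2, 7, 11 and 17).

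None of the values that changed sign was called. Zbtb46 in AIA against CON was -0.0193 and -0.0109 with limma at pseudocounts of 0.1 and 1 and -0.0791 to 0.16 leaving out 1 library. Leaving out 1 library, Ab against AIA gave -0.14 to 0.19 for Clec9a and -0.31 to 0.63 for Xcr1, which turned without Ab replicate 12. Relative to Ptprc, AIA against CON gave -0.14 to 0.22 for Batf3, -0.28 to 0.28 for Xcr1, -0.17 to 0.11 for Flt3 and -0.0426 to 0.26 for Clec9a, and Ab against CON gave -0.0024 to 0.38 for Clec10a, which turned without Ab replicate 21_8. Xcr1 was removed by the stricter filter, and in Ab against CON also in the fit on 10 libraries, and has no value there. Low counts limit Xcr1 and Flt3. No paired analysis was possible because the groups share no replicate number.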

Other observations

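Of 12 tested neutrophil genes, 10 rose in Ab against CON (median log2 fold change 2.81), and 6 rose in AIA against CON (median 2.98), while 1 fell in Ab against AIA, Csf3r, the receptor for the granulocyte growth factor (-1.19). Of 12 synovial fibroblast genes, 5 fell and 1 rose in AIA against CON (median -0.50). In Ab against AIA 6 fell, among them Col1a1 (-2.21) and Dcn (-0.85), and in Ab against CON 8 fell.

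The ratio of Clec10a to Clec9a CPM, chosen after the values were seen and given with no test, was 7.04 to 14.2 in Ab libraries (median 10.6), 14.7 to 33.6 in AIA libraries (median 26.5) and 12.03 to 23.9 in CON libraries (median 21.5).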
